A study of Mus musculus with 19 samples.

Results

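Cytochrome P450 enzymes of families 1 to 4 were examined in mouse visceral yolk sac (VYS), fetal liver and cystic embryoid bodies (EBs). The members were the 73 gene symbols, of 23337 in the table, that consist of Cyp, a family number from 1 to 4, a single subfamily letter and a gene number, and each was represented by its RefSeq transcript with the highest mean count over the 11 RNA-seq libraries. Family 1 had 3 members, family 2 had 48, family 3 had 7 and family 4 had 15, and these symbols covered 84 of the 30455 transcript rows. A further 10 symbols of these families, which carry another letter or a pseudogene mark, fell outside the rule. The members are not independent of each other, since 64 of the 73 lie in 8 clusters of neighbouring genes.

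P450 enzymes are heme proteins of the endoplasmic reticulum that insert an oxygen atom into their substrates with electrons from P450 reductase. Families 1 to 3 are known for the oxidation of drugs, pollutants, steroids and arachidonic acid, and family 4 for the hydroxylation of fatty acids and eicosanoids at the end of the chain. In the adult most of these genes are transcribed in hepatocytes, many of them from gene clusters under nuclear receptors, while family 1 responds to the aryl hydrocarbon receptor. The yolk sac endoderm is the fetal layer that takes up maternal nutrients and makes serum proteins before the liver does.

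The RNA-seq samples were yolk sac endoderm (ysE) at E12.5 with 1 library, ysE at E9.25 with 2, VYS mesoderm at E9.25 with 2, liver at E12.5 with 2 and cystic EBs with 4, namely days 10 and 15 from the ES clones A9 (replicate A) and JN (replicate B). The tissues came from FVB mice, each sample pooled a whole litter, and the 2 layers of the yolk sac were parted with Dispase II. The EBs came from C57BL/6 x 129 ES cells, so strain and sample type cannot be told apart in comparisons with EBs, and each clone is 1 line. The library protocol also differed, being nonstranded for E12.5 ysE, dUTP for E9.25 ysE, mesoderm and the JN EBs, and ScriptSeq for liver and the A9 EBs. Protocol and stage therefore cannot be told apart between the ysE stages, nor protocol and clone within EBs. The protocol of E12.5 ysE was shared by no other RNA-seq library, so protocol and tissue cannot be told apart between it and liver or EBs. Bisulfite sequencing covered E12.5 ysE, E12.5 liver and d15 cystic EBs, each as 1 CxF and 1 FxC library, the reciprocal crosses between the CAST and FVB strains, and its EBs came from ES clones of those crosses and not from A9 or JN. H3K4me3 ChIP-seq covered 1 sample of intact E12.5 VYS.

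Summed counts per library were between 40453779 and 169981821. The 8 markers of yolk sac endoderm fixed for the study (Afp, Ttr, Amn, Cubn, Apoa4, Apob, Rbp4 and Slc39a4) summed to 42697 RPKM (reads per kilobase of transcript, scaled to the mapped reads) in E12.5 ysE, 10311 to 11383 for ysE at E9.25, 1145 to 2040 for VYS mesoderm, 1657 to 2901 for liver and 158 to 1314 in cystic EBs. The 8 hepatocyte markers (Alb, Fabp1, Ahsg, Serpina1a, Apoh, Fgb, Tat and Cps1) summed to 1829, 309 to 362, 16.6 to 35.9, 545 to 1163 and 7.44 to 69.7 RPKM in the same order, and Tat was at 0 in both E9.25 ysE libraries. The 8 erythroid markers reached 18573 to 23411 RPKM in mesoderm and 1397 to 2756 in liver, against 26.7 in E12.5 ysE and 491 to 571 for ysE at E9.25. In bulk samples, fewer cells of a type and less RNA per cell cannot be told apart.

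Few members were transcribed at a level above 1 RPKM, and which ones differed between tissues. A mean of 1 RPKM or more was reached by 10 members in E12.5 ysE, 6 for ysE at E9.25, 3 for VYS mesoderm, 7 for liver and 7 in cystic EBs, and by 18 in at least 1 of the 5 tissues. The liver libraries differed in this, with 5 members at 1 RPKM or more in A and 12 in B. Another 23 members reached 0.1 to 1 RPKM as their highest mean, and 32 stayed below 0.1 RPKM everywhere. No member was at 1 RPKM or more in all 5 tissues, and 7 (Cyp2c68, Cyp2d22, Cyp2r1, Cyp2s1, Cyp4f13, Cyp4f16 and Cyp4f17) were at 0.1 RPKM or more in each. The low members included hallmark enzymes of the adult liver. Cyp1a2, the caffeine-oxidising enzyme, did not exceed 0.062 RPKM in any library, and Cyp2e1, the ethanol-oxidising enzyme, did not exceed 0.121 RPKM. Cyp2b10, a classical target of the nuclear receptor CAR, did not exceed 0.047 RPKM.

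**Figure D1:**
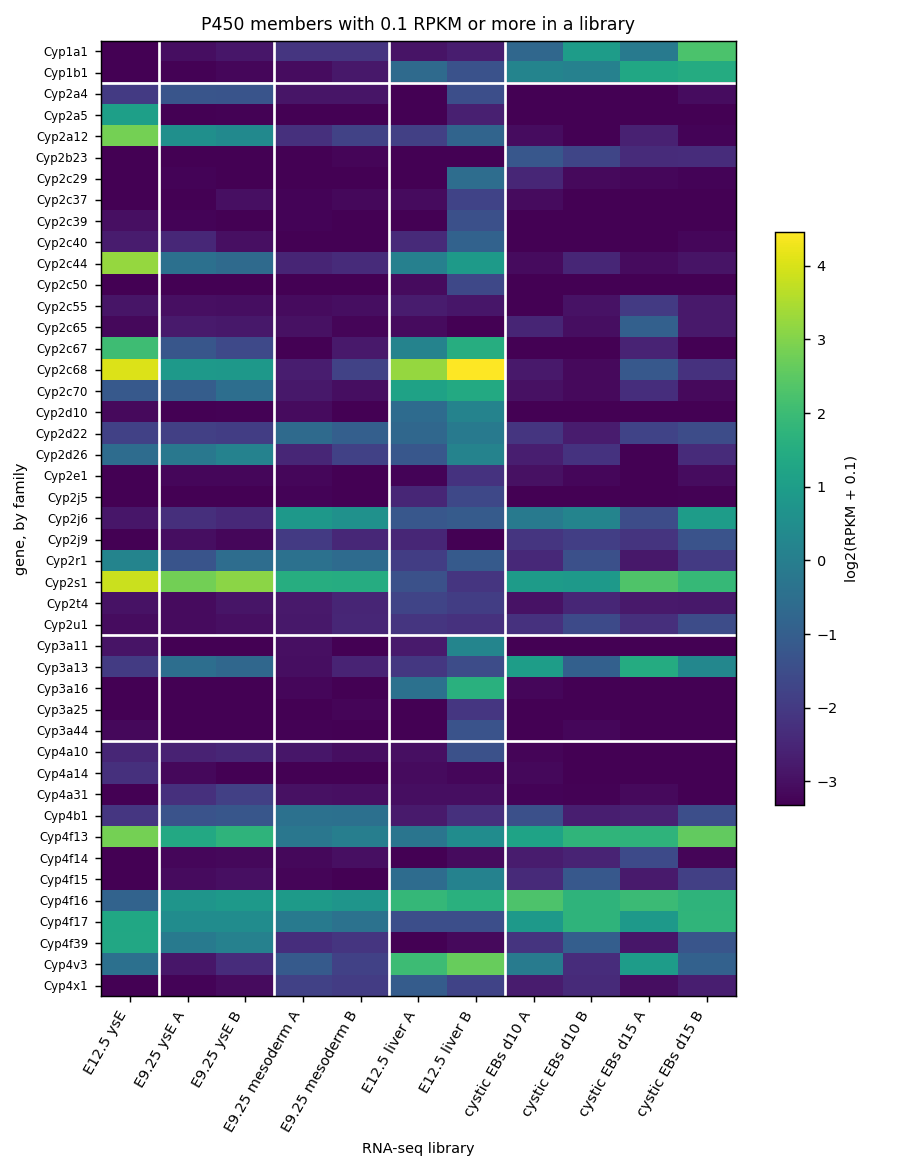
Heat map of log2(RPKM + 0.1) for the members with 0.1 RPKM or more in at least 1 library, genes in rows ordered by family and the 11 RNA-seq libraries in columns, with white lines between tissues and between families. Cyp2c44, Cyp2c67 and Cyp2c68 are brighter in E12.5 ysE and liver than in cystic EBs, Cyp2a12 is brightest in ysE, and Cyp1a1 and Cyp1b1 are bright in cystic EBs.

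Summed over the 73 members, the level was 69.4 RPKM in E12.5 ysE and 20.7 and 23.8 for ysE at E9.25. It was 11.6 and 10.9 RPKM in mesoderm, 27.6 and 54.1 for liver, and 17.7, 18.6, 24.0 and 29.4 in cystic EBs (A and B at d10, then A and B at d15). The E12.5 ysE library stood above all others and the mesoderm libraries below them. The make-up of the sum differed as well, with the Cyp2c subfamily at 43.7% in E12.5 ysE and 49.1% and 57.3% for liver, but 0.903% to 4.72% in cystic EBs, where the Cyp4f subfamily held 38.0% to 57.5%. In E9.25 ysE and mesoderm the leading member was Cyp2s1, with 33.0% and 35.9% of the sum in the former and 24.0% and 25.1% in the latter. The 2 liver libraries were far apart. Of 35 members at 0.1 RPKM or more in either of them, 28 were higher in replicate B. The share of all genes higher in B was not computed, so this count is not read as a result about the members. Hepatocyte marker sums were 545 RPKM in A and 1163 in B, and the part of the hepatocyte share in the difference was not tested.

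**Figure D2:**
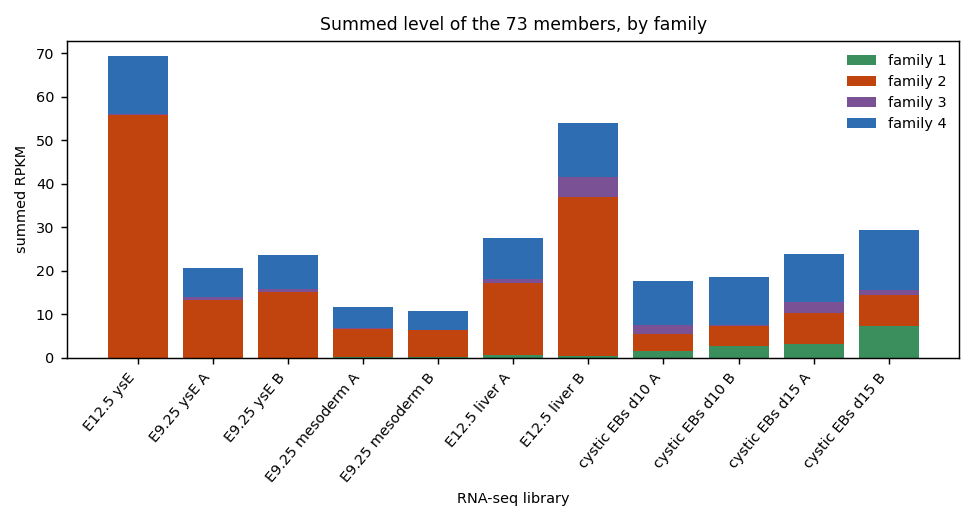
Stacked bars of summed RPKM of the 73 members in each RNA-seq library, coloured by P450 family. E12.5 ysE is the tallest bar with 69.4 RPKM, of which family 2 gives 55.9, and family 1 sums to 1.55 to 7.38 RPKM in the cystic EB libraries and to at most 0.582 in the others.

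The members with high levels in the E12.5 ysE library were led by Cyp2c68, Cyp2s1, Cyp2c44 and Cyp2a12, and those of the E9.25 ysE libraries by Cyp2s1 and Cyp4f13. Cyp2s1, a P450 of epithelia outside the liver that oxidises retinoids and eicosanoids, was at 14.2 RPKM in E12.5 ysE, 6.84 and 8.55 for ysE at E9.25, 2.79 and 2.74 for VYS mesoderm, 0.282 and 0.130 for liver, and 1.83, 1.76, 4.88 and 3.63 in cystic EBs (A and B at d10, then A and B at d15, as in all EB series below). Every ysE library lay above every other library, and liver lay below all. Cyp2c68 was at 16.5 RPKM in E12.5 ysE, 1.76 and 1.66 for ysE at E9.25, 0.054 and 0.190 for VYS mesoderm, 9.23 and 21.9 for liver, and 0.015 to 0.346 in cystic EBs. It was the most abundant member in both E12.5 ysE and liver. Cyp2c enzymes are epoxygenases of arachidonic acid and, in the adult liver, drug oxidases. Cyp2c44, the arachidonic acid epoxygenase that RefSeq now names Cyp2c23, was at 9.30 RPKM in E12.5 ysE, 0.631 and 0.540 for ysE at E9.25, 0.075 and 0.095 for VYS mesoderm, 0.937 and 1.80 for liver and 0.016 to 0.080 in cystic EBs. Cyp2c67 followed the same order of tissues, with 3.996 RPKM in E12.5 ysE, 1.03 and 2.80 for liver and at most 0.324 elsewhere. Cyp2c70, which hydroxylates bile acids to muricholic acids in mice, was highest in liver, at 2.14 and 2.58 RPKM, with 0.353 in E12.5 ysE, 0.392 and 0.604 for ysE at E9.25 and at most 0.102 in the other libraries.

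Sequences of the starts of Cyp2s1 and Cyp2c68 are shown because Cyp2s1 was the most abundant member of ysE at E9.25 and Cyp2c68 that at E12.5, and both starts lay in an H3K4me3 peak of VYS. The windows run from 250 bases before to 50 bases after the start in RefSeq (GRCm38.p6, minus strand, written 5′ to 3′), for Cyp2s1 at chr7:25816476-25816775 and for Cyp2c68 at chr19:39741052-39741351, and capitals mark CpG dinucleotides. Cyp2s1 had 17 CpG in this window and Cyp2c68 had 2. The window of Cyp2c68 had 277 bases (92.3%) in common with that of Cyp2c69, and how the counting divided reads among the Cyp2c genes was not tested.
Cyp2s1: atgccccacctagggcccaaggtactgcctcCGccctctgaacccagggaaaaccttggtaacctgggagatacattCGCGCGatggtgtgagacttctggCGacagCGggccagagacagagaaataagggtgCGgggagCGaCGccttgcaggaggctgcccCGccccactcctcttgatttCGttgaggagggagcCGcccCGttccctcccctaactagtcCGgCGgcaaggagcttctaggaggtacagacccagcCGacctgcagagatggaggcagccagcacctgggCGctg
Cyp2c68: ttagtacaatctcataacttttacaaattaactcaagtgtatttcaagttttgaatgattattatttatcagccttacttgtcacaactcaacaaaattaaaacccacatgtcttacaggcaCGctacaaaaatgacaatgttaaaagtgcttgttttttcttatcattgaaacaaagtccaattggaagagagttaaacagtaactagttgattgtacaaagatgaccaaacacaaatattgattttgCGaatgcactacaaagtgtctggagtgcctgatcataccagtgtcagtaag

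The Cyp2a genes lie in a cluster of 13 members on chromosome 7 (25802469 to 27158564, mm10), with Cyp2s1 at its edge. Cyp2a12, a steroid hydroxylase, was at 7.08 RPKM in E12.5 ysE, 1.37 and 1.21 for ysE at E9.25, 0.110 and 0.188 for VYS mesoderm, 0.179 and 0.465 for liver, and at most 0.063 in cystic EBs. Cyp2a5, the coumarin hydroxylase, was at 2.001 RPKM in E12.5 ysE, at 0.000 and 0.003 for ysE at E9.25, at 0.000 and 0.061 in liver, and had no count in mesoderm or cystic EBs. Cyp2a4, a testosterone hydroxylase of the same cluster, had the opposite order of the ysE stages to Cyp2a5, with 0.149 RPKM in E12.5 ysE against 0.313 and 0.306 for ysE at E9.25. This pair is closely related, and how the counting divided their reads was not tested. Their start windows, shown as a measure of likeness, had 294 of 300 bases in common, a share of 98.0%. They are written 5′ to 3′ on the plus strand (RefSeq, GRCm38.p6, chr7:26306942-26307241 and chr7:26835089-26835388), with matches to the TATA box letters TATAAA in capitals.
Cyp2a4: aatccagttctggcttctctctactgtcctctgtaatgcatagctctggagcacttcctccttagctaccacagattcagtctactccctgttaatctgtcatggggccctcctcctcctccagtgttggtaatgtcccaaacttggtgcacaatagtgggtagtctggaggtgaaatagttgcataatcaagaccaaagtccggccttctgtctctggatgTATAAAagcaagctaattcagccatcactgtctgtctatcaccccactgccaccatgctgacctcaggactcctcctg
Cyp2a5: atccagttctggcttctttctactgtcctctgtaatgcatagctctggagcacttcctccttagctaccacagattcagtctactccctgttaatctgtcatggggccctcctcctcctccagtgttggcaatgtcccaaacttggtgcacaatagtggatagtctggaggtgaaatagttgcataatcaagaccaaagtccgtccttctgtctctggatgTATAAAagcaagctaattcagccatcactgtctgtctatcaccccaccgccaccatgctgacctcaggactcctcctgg

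The Cyp4f genes, omega-hydroxylases of leukotrienes and long-chain fatty acids, form a cluster of 7 members on chromosome 17 (32452697 to 32947415, mm10) whose genes differed from each other. Cyp4f13 was at 6.97 RPKM in E12.5 ysE, 2.48 and 3.27 for ysE at E9.25, 0.749 and 0.895 for VYS mesoderm, 0.715 and 1.27 for liver, and 2.16, 3.32, 3.21 and 5.95 in cystic EBs. Cyp4f39, whose human counterpart makes the omega-hydroxy fatty acids of skin acylceramides, was at 2.45 RPKM in E12.5 ysE, 0.819 and 0.980 for ysE at E9.25, 0.103 and 0.131 for VYS mesoderm, 0.000 and 0.015 for liver and 0.040 to 0.398 in cystic EBs. Both were thus above mesoderm in every ysE library. Cyp4f16 had another pattern, lowest in E12.5 ysE with 0.460 RPKM, at 1.55 and 1.73 for ysE at E9.25, 1.79 and 1.58 for VYS mesoderm, 3.51 and 2.95 for liver and 3.23 to 4.73 in cystic EBs. Cyp4f17 was at 2.37 RPKM in E12.5 ysE, 1.28 and 1.28 for ysE at E9.25 and 1.72 to 3.32 in cystic EBs, with a mean of 0.748 in mesoderm and 0.267 and 0.263 in liver. Cyp4f15 was at 0.568 and 1.001 RPKM in liver, 0.049 to 0.346 in cystic EBs and at most 0.024 in the other tissues.

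In cystic EBs, Cyp1a1 and Cyp1b1 were at higher levels than in any tissue, while Cyp1a2, the third member of family 1, had a mean of 0.0112 RPKM there. Cyp1a1 and Cyp1b1, which oxidise polycyclic aromatic hydrocarbons and estrogens, are the classical targets of the aryl hydrocarbon receptor. Cyp1a1 was at 0.507 RPKM in d10 A, 1.87 in d10 B, 0.820 in d15 A and 4.72 in d15 B, and at most 0.130 in any tissue library. Both JN libraries lay above both A9 libraries. Cyp1b1 was at 1.03, 0.972, 2.37 and 2.66 RPKM in the same order, 0.548 and 0.286 for liver and at most 0.041 in yolk sac. Here the d15 libraries of both clones lay above the d10 libraries. The start windows of this pair are shown with the letters GCGTG, the core of the xenobiotic response element bound by the receptor, in capitals on either strand. The windows are taken from RefSeq (GRCm38.p6) and written 5′ to 3′, with Cyp1a1 on the plus strand at chr9:57697363-57697662 and Cyp1b1 on the minus strand at chr17:79715012-79715311. Each held 1 match. These letters were in 32.5% of the start windows of all genes and in 21.7% of those of members, and a match is not a binding site.
Cyp1a1: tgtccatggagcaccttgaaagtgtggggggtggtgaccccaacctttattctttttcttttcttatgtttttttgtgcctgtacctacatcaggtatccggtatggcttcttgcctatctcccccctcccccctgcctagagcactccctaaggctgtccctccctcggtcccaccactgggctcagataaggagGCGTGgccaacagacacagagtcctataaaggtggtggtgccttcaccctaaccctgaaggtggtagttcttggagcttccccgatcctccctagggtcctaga
Cyp1b1: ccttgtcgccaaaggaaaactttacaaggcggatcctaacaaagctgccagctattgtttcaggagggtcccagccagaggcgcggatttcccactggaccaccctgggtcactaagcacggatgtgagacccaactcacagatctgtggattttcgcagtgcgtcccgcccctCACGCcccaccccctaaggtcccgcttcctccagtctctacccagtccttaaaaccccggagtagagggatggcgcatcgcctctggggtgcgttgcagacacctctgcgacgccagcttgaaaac

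Other members of cystic EBs belonged to families 2 to 4. Cyp3a13, a family 3 enzyme outside the main Cyp3a cluster, was at 1.93 and 2.64 RPKM in the A9 libraries and 0.423 and 1.12 in the JN libraries, against 0.607 and 0.506 for ysE at E9.25 and at most 0.248 elsewhere. Cyp2b23 was at 0.333, 0.207, 0.096 and 0.1 RPKM (A and B at d10, then at d15) and had 1 library outside EBs with any reads, mesoderm B at 0.007. Cyp2j6, an epoxygenase of the Cyp2j subfamily, was at 0.827, 1.05, 0.253 and 1.85 RPKM in cystic EBs and 1.66 and 1.44 in mesoderm, while it was at 0.039 in E12.5 ysE, 0.105 and 0.088 for ysE at E9.25 and 0.331 and 0.372 in liver. Mesoderm and EBs thus had the highest means of Cyp2j6. Cyp4b1 was also highest in mesoderm and Cyp4x1 was there at a lower level than in liver, with 0.643 and 0.627 RPKM for Cyp4b1, against 0.136 to 0.322 for ysE, and 0.183 and 0.162 for Cyp4x1, against 0.376 and 0.198 for liver and at most 0.018 in ysE. Cyp2r1, the vitamin D 25-hydroxylase, was at 1.04 RPKM in E12.5 ysE, 0.309 to 0.649 in the other yolk sac libraries, 0.169 and 0.363 for liver and 0.043 to 0.273 in cystic EBs. Cyp2u1, a long-chain fatty acid hydroxylase, ranged from 0.018 to 0.252 RPKM.

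Liver had its own set. Cyp3a16 and Cyp3a11 belong to the Cyp3a subfamily that oxidises steroids and drugs in hepatocytes. Cyp3a16 was at 0.643 RPKM in liver A and 2.96 in liver B, with at most 0.010 in any other library. Cyp3a11 was at 0.048 and 1.05 RPKM in the same libraries and at most 0.034 elsewhere, so replicate A barely exceeded the other tissues. The start windows of Cyp3a16 and Cyp3a44 had 284 of 300 bases in common, and reads of this subfamily may be divided between genes. Cyp4v3, a fatty acid hydroxylase, was at 3.96 and 6.19 RPKM in liver, 0.853, 0.098, 1.85 and 0.435 in cystic EBs, 0.633 in E12.5 ysE and at most 0.360 in the E9.25 yolk sac. Cyp2d10 was at 0.562 and 1.03 RPKM in liver and at most 0.016 elsewhere, and Cyp2j5 at 0.078 and 0.219 against at most 0.005. The Cyp4a genes Cyp4a10 and Cyp4a14, fatty acid hydroxylases under the receptor PPAR alpha, stayed low. Cyp4a10 was at 0.283 RPKM in liver B and 0.078 or less elsewhere, and Cyp4a14 had its highest value, 0.112, in E12.5 ysE.

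**Figure D3:**
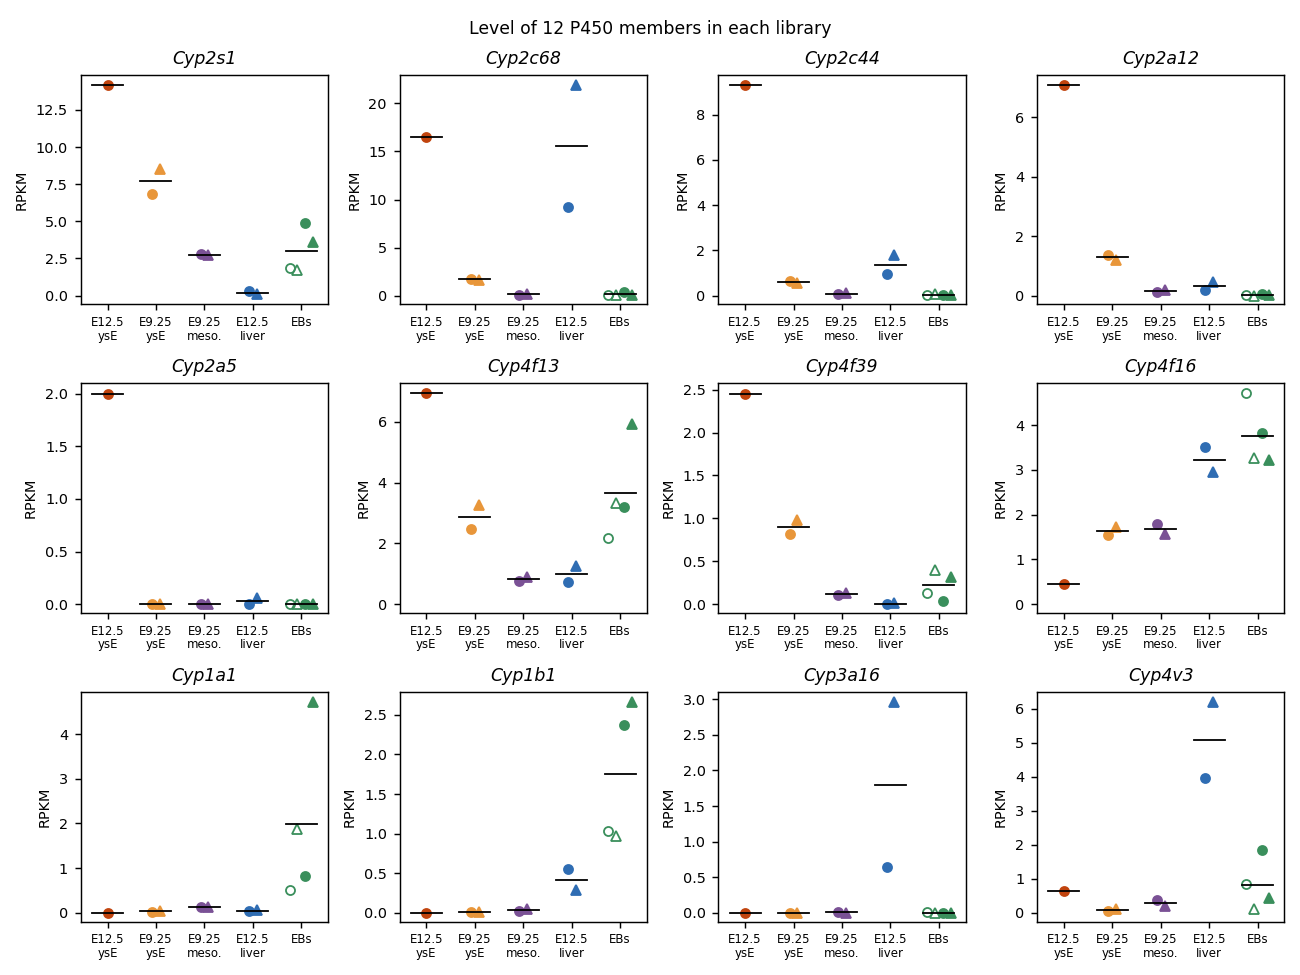
RPKM of 12 members in every RNA-seq library, on linear axes that differ between genes, with a bar at the mean of each tissue. Circles are replicate A (or the only library) and triangles replicate B, and open symbols are d10 EBs. Cyp2s1, Cyp2c44, Cyp2a12, Cyp2a5, Cyp4f13 and Cyp4f39 are highest in the single E12.5 ysE library, Cyp3a16 and Cyp4v3 in liver, and Cyp1a1, Cyp1b1 and Cyp4f16 in cystic EBs.

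For differences between tissues, edgeR's quasi-likelihood test was run over all 24858 transcripts that passed a filter on low counts, at a false discovery rate (FDR) of 5% after Benjamini-Hochberg adjustment. Of the 73 members, 53 passed the filter (3 of 3, 32 of 48, 6 of 7 and 12 of 15 in families 1 to 4) and 20 were not tested. Log2 fold changes below are given with a standard error (SE), taken as the size of the change divided by the square root of the test's F statistic. A member could pass the filter through a single tissue, or a single library, in which it was high. The counts of members called are therefore read only against the share of all tested transcripts called. That share was computed only for the fit of all libraries at this FDR. Counts under other settings show how the calls depend on the setting and are not results about the members. Where a tissue had no count, a lower bound of the fold against a floor of 3 counts over that tissue is given in place of the fitted change, and where it had 1 to 3 counts the ratio of counts is given with its exact 95% interval, both after division by summed counts and covering counting error only. By its construction a bound also falls when a library of the tissue without a count is left out, since the floor then rests on fewer reads.

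The first comparison was of the 2 layers of the yolk sac. At E9.25, ysE had more RNA of 10 members than mesoderm, among them the Cyp2c genes Cyp2c68, Cyp2c70, Cyp2c44 and Cyp2c40, the Cyp2a gene Cyp2a12, Cyp2s1, Cyp4f13 and Cyp4f39, and less of Cyp2j6 and Cyp4x1. The share of members called higher was 18.9% of those tested, beside 13.7% of all transcripts, and the share called lower was 3.77%, beside 16.9%. The largest changes by edgeR were those of Cyp2c70 (log2 fold change 4.30 ± 0.90 SE, adjusted p = 0.00599), Cyp2c68 (4.09 ± 1.12, adjusted p = 0.0212) and Cyp3a13 (3.89 ± 0.91, adjusted p = 0.0106). Cyp2a12 changed by 3.41 ± 0.98 (adjusted p = 0.0254), Cyp4f39 by 3.25 ± 0.97 (adjusted p = 0.0307) and Cyp2c44 by 3.08 ± 0.65 (adjusted p = 0.00621). Cyp4a31, a fatty acid hydroxylase, changed by 2.78 ± 0.93 (adjusted p = 0.0476), Cyp4f13 by 2.12 ± 0.48 (adjusted p = 0.00861) and Cyp2s1, the most abundant, by 1.80 ± 0.54 (adjusted p = 0.0315). Cyp2c40 had no count in mesoderm and was at least 7.04-fold higher in ysE (adjusted p = 0.0271). In mesoderm, Cyp2j6 was higher by a log2 fold change of -3.68 ± 0.74 (adjusted p = 0.00488) and Cyp4x1, a P450 first known from brain, by -3.40 ± 0.87 (adjusted p = 0.0154), the sign being ysE minus mesoderm.

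The calls between the layers depended on each library, since 10 higher members became 4 without ysE A, 4 without ysE B, 1 without mesoderm A and 3 without mesoderm B, and 2 lower members became 1 without ysE A, ysE B or mesoderm A. The calls of Cyp2a12, Cyp2c68, Cyp2s1 and Cyp4f39 were lost whichever of the 4 libraries was left out, with adjusted p up to 0.171, 0.142, 0.149 and 0.175 by edgeR. The call of Cyp4a31 was the least stable, being lost without any of these 4 libraries and under 11 of 17 alternatives in all (adjusted p up to 0.194). The call of Cyp2c40 was lost without ysE A, mesoderm A, mesoderm B or EB d15 B (adjusted p up to 0.113), and its bound was 3.55-fold without ysE A, which held 18 of its 26 counts, 3.71-fold without mesoderm A and 3.33-fold without mesoderm B. Those of Cyp2c44 and Cyp3a13 were lost without mesoderm A (adjusted p = 0.0638 and 0.0849), that of Cyp2c70 without mesoderm B (adjusted p = 0.0571), that of Cyp4f13 without ysE B or mesoderm A (adjusted p up to 0.0778), that of Cyp2j6 without ysE B (adjusted p = 0.0524) and that of Cyp4x1 without ysE A or mesoderm A (adjusted p up to 0.1). The 8 endoderm markers moved with these members, 7 of 8 being higher in ysE, and so did 4 of 8 hepatocyte markers, while 8 of 8 erythroid and 8 of 8 endothelial and mesenchymal markers were higher in mesoderm, as were 2 of 4 macrophage, 1 of 4 cardiac and 1 of 4 neural markers. Of 5 pluripotent markers 1 was higher in ysE. Their part in the result was not tested.

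Between the stages of ysE, 2 members rose and 1 fell. The epoxygenase gene Cyp2c44 was higher at E12.5 than at E9.25 by a log2 fold change of 3.91 ± 0.70 SE (adjusted p = 0.0127, edgeR). Cyp2a5 had 1 count in the E9.25 libraries and a ratio of counts of 1020 (95% interval 180 to 40541) at E12.5 (adjusted p = 0.0434), its division from Cyp2a4 being untested, and Cyp4f16 fell by 1.92 on the log2 scale (± 0.41, adjusted p = 0.0235). These are 3.77% and 1.89% of the members tested, beside 3.90% and 4.57% of all transcripts. Both Cyp2c68, with 16.5 RPKM at E12.5 against a mean of 1.71, and Cyp2a12, with 7.08 against 1.29, did not pass the test. E12.5 ysE had only 1 library, of a protocol of its own, and its spread was taken from the other groups. The call of Cyp2a5 was lost by DESeq2 (adjusted p = 0.25). Its ratio was 622 without E9.25 ysE A (95% interval 110 to 24727), and without E9.25 ysE B, which held the 1 count, it was at least 133-fold higher at E12.5. Without E9.25 ysE A or B, no member was called in either direction. Without mesoderm A or B, which enter the common fit but not the contrast, 1 was called higher and 0 lower. When only these 3 libraries were fitted, more members were called in both directions. The share of all transcripts called was not computed for that fit, so this is not read as a result about the members. Hepatocyte markers moved in the same direction as Cyp2c44 and Cyp2a5, 4 of 8 being higher at E12.5 and none lower. No endoderm marker was called in either direction. Of 8 erythroid markers 4 were lower at E12.5, and so were 3 of 8 endothelial and mesenchymal markers. Their part in the result was not tested.

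Against fetal liver, E12.5 ysE had more RNA of 7 members and less of 8. The ysE side was 1 library, of another protocol than the liver libraries, so protocol and tissue cannot be told apart here. Cyp2s1, Cyp2a5, Cyp2a12, Cyp2c44 and the Cyp4f genes Cyp4f13, Cyp4f17 and Cyp4f39 were higher in ysE, and Cyp3a16, Cyp2d10, Cyp2j5, Cyp2j6, Cyp1b1, Cyp4f15, Cyp4f16 and Cyp4x1 were higher in liver. The shares were 13.2% and 15.1% of the members tested, beside 22.6% and 23.7% of all transcripts. By edgeR, Cyp2s1 differed by a log2 fold change of 6.12 ± 0.70 SE (adjusted p = 0.000181), Cyp2a5 by 6.10 ± 1.60 (adjusted p = 0.0265), Cyp2a12 by 4.5 ± 1.09 (adjusted p = 0.00805) and Cyp4f17 by 3.19 ± 0.50 (adjusted p = 0.000862). Cyp4f39 had a ratio of counts of 281 (95% interval 95.1 to 1370, adjusted p = 0.00112), which was 135 without liver A (45.8 to 659), and without liver B, which held all 3 liver counts, it was at least 146-fold higher in ysE. The smallest called differences in this direction were those of Cyp4f13, 2.85 ± 0.54 (adjusted p = 0.00248), and Cyp2c44, 2.81 ± 0.69 (adjusted p = 0.00853).

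In liver, Cyp3a16 was at least 53.9-fold higher than in E12.5 ysE, where it had no count (adjusted p = 0.00936, edgeR). The bounds were 40.2-fold for Cyp1b1 (adjusted p = 0.00247), 29.9-fold for Cyp4f15 (adjusted p = 0.00959), 9.54-fold for Cyp2j5 (adjusted p = 0.0412) and 8.22-fold for Cyp4x1 (adjusted p = 0.00969). The bounds moved with the liver library, that of Cyp3a16 being 21.3-fold without liver B and 89.1-fold without liver A. That of Cyp2j5 was 5.50-fold without liver B, and those of Cyp1b1 and Cyp4x1 were 25.5-fold and 5.24-fold without liver A. Cyp2d10 had 1 count in ysE and a ratio of ysE to liver of 0.0143 (95% interval 0.00036 to 0.0804, adjusted p = 0.0404). Cyp2j6 fell by 3.14 on the log2 scale from liver to ysE (± 1.06, adjusted p = 0.0354) and Cyp4f16 fell by 2.78 (± 0.43, adjusted p = 0.000873). Without liver A, the calls of Cyp2a12 (adjusted p = 0.0566), Cyp2c44 (adjusted p = 0.0565), Cyp2d10 and Cyp2j6 were lost, and without liver B those of Cyp2d10, Cyp2j5 and Cyp2j6 (adjusted p up to 0.105, 0.0981 and 0.0709). By DESeq2 the call of Cyp2a5 was lost (adjusted p = 0.384). The calls of Cyp2d10 and Cyp2j6 were also lost without E9.25 ysE A or B, that of Cyp2j6 without mesoderm A or B, and that of Cyp2j5 without EB d15 B. Between these tissues 7 of 8 endoderm markers were higher in ysE, 7 of 8 erythroid markers were higher in liver, and 1 of 8 hepatocyte markers was higher in ysE and none lower. In liver, 5 of 8 endothelial and mesenchymal markers (Kdr, Pecam1, Cdh5, Tek and Acta2), 2 of 4 macrophage, 1 of 4 cardiac and 1 of 4 neural markers were also higher, and 1 of 5 pluripotent markers was higher in ysE. Their part in the result was not tested.

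Between cystic EBs and E9.25 ysE, the share of members called lower in EBs was near that of all transcripts. Against E9.25 ysE, 13 members were lower in cystic EBs, with 5 Cyp2c genes (Cyp2c40, Cyp2c44, Cyp2c67, Cyp2c68 and Cyp2c70), Cyp2a4, Cyp2a12, Cyp2d26, Cyp2r1, Cyp2s1, Cyp4a10, Cyp4a31 and Cyp4f39 among them, and 10 were higher, with Cyp1a1, Cyp1b1, Cyp2b23, 3 Cyp2j genes, Cyp2u1, Cyp4f15, Cyp4f16 and Cyp4v3. The shares were 24.5% lower and 18.9% higher of the members tested, beside 23.2% and 27.1% of all transcripts. By edgeR, Cyp2a12 fell by 6.60 on the log2 scale (± 0.92 SE, adjusted p = 0.000418), Cyp2a4 fell by 5.98 (± 1.43, adjusted p = 0.00712), Cyp4a31 fell by 5.17 (± 0.87, adjusted p = 0.00113) and Cyp2c67 fell by 4.73 (± 1.34, adjusted p = 0.0157). The ratio of EBs to ysE was 0.0197 for Cyp4a10 (95% interval 0.000489 to 0.115, adjusted p = 0.00495) and 0.0698 for Cyp2c40 (0.00803 to 0.279, adjusted p = 0.0165). The smallest of the lower calls were Cyp2r1, which fell by 2.12 (± 0.63, adjusted p = 0.0198), and Cyp2s1, which fell by 1.79 (± 0.44, adjusted p = 0.00804). Without E9.25 ysE A, the calls of Cyp2c40 and Cyp2c67 were lost (adjusted p = 0.128 and 0.0692), the latter also by DESeq2 (adjusted p = 0.116), and without E9.25 ysE B those of Cyp2r1 and Cyp2s1 (adjusted p = 0.178 and 0.0654). That of Cyp4f39 was lost without either (adjusted p up to 0.105). The ratio of Cyp2c40 was 0.138 without E9.25 ysE A (95% interval 0.0143 to 0.693) and 0.0393 without B (0.00442 to 0.164). That of Cyp4a10 was 0.0308 without EB d15 B (95% interval 0.000763 to 0.18). Without EB d10 A, which held its only EB count, Cyp4a10 was at least 14-fold higher in E9.25 ysE.

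Among the higher members, Cyp1b1 differed between cystic EBs and E9.25 ysE by a log2 fold change of 7.40 ± 0.86 SE (adjusted p = 0.000158, edgeR) and Cyp1a1 by 5.51 ± 1.02 (adjusted p = 0.00191). Cyp2b23 had no count in E9.25 ysE and was at least 41.4-fold higher in EBs (adjusted p = 0.00474), and Cyp2j13 had a ratio of 34.5 (95% interval 5.82 to 1397, adjusted p = 0.0364). Cyp4v3 was higher by 3.09 ± 1.05 (adjusted p = 0.0346), Cyp2j9 by 2.99 ± 1.13 (adjusted p = 0.0497), Cyp2u1 by 2.52 ± 0.67 (adjusted p = 0.0114) and Cyp4f16 by 0.75 ± 0.27 (adjusted p = 0.0412). The number higher was 4 without E9.25 ysE A and 3 without E9.25 ysE B, whereas Cyp1a1 and Cyp1b1 were called under every alternative run. Among the dUTP libraries alone, 11 members were higher and 12 lower. The calls of Cyp4f16 and Cyp2j9 were lost under 9 of 18 alternatives each (adjusted p up to 0.159 and 0.229). That of Cyp2j13 was lost by DESeq2 and without EB d15 B, E9.25 ysE A or E9.25 ysE B (adjusted p up to 0.156), and its ratio was 21.0 without E9.25 ysE A (95% interval 3.55 to 852), while without E9.25 ysE B it was at least 4.48-fold higher in EBs. That of Cyp4f15 was lost under 7 of 18 alternatives, among them without either E9.25 ysE library or either liver library (adjusted p up to 0.185). The call of Cyp2u1 was lost without E9.25 ysE A or B (adjusted p up to 0.0805) and that of Cyp2j6 without B (adjusted p = 0.0609). The bound of Cyp2b23 was 25.3-fold without E9.25 ysE A and 16.2-fold without B. The call of Cyp4v3, which was higher in the A9 than in the JN libraries, was lost among the dUTP libraries, with the replicate letter as a block and without EB d10 A or either E9.25 ysE library (adjusted p up to 0.181). All 8 endoderm markers were lower in cystic EBs, as were 4 of 8 hepatocyte and 7 of 8 erythroid markers, while 4 of 5 pluripotent, 4 of 4 cardiac, 4 of 4 neural and 3 of 8 endothelial and mesenchymal markers were higher. Their part in the result was not tested.

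Against E12.5 ysE, 13 members were lower and 5 higher in cystic EBs, which is 24.5% and 9.43% of the members tested, beside 18.8% and 21.1% of all transcripts. Cyp2a5 was without a count in cystic EBs and at least 375-fold higher in E12.5 ysE (adjusted p = 0.00405, edgeR), a call that was lost by DESeq2 (adjusted p = 0.0817). Cyp2a12 fell by 8.97 on the log2 scale (± 1.01 SE, adjusted p = 0.000192), Cyp2c67 fell by 8.49 (± 1.47, adjusted p = 0.00183), Cyp2c44 fell by 8.23 (± 0.63, adjusted p = 3.32e-05) and Cyp2c68 fell by 7.42 (± 1.01, adjusted p = 0.000498). Cyp4a10 had a ratio of EBs to ysE of 0.0188 (95% interval 0.000417 to 0.146, adjusted p = 0.016). The smallest lower calls were again Cyp2s1, which fell by 2.59 (± 0.52, adjusted p = 0.00381), and Cyp2r1, which fell by 3.24 (± 0.74, adjusted p = 0.00753). In the other direction, Cyp1b1 was at least 145-fold (adjusted p = 0.0011), Cyp1a1 at least 101-fold (adjusted p = 0.00608) and Cyp4f15 at least 6.58-fold higher in EBs (adjusted p = 0.0473), the ysE library having no count of them. Cyp2j6 was higher by 4.28 ± 1.07 (adjusted p = 0.0115) and Cyp4f16 by 2.67 ± 0.42 (adjusted p = 0.00103). This comparison and the one before share the EB libraries.

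The calls against E12.5 ysE rest on 1 ysE library, of a protocol that no EB library shared. When only these 5 libraries were fitted, 8 members were lower, and the calls of Cyp2c70, Cyp2d26 and Cyp2j6 were among those lost (adjusted p = 0.0601, 0.0792 and 0.0588). Without EB d15 B the bound of Cyp1a1 was 52.8-fold, that of Cyp2a5 was 240-fold and the ratio of Cyp4a10 was 0.0294 (95% interval 0.000652 to 0.229), and without EB d10 B the bound of Cyp4f15 was 4.17-fold. The calls of Cyp2a4 and Cyp4a14 were lost without EB d10 B or EB d15 B, and that of Cyp2a4 also without EB d10 A, EB d15 A or any of the E9.25 libraries (adjusted p up to 0.0807 for Cyp2a4 and 0.131 for Cyp4a14 by edgeR or DESeq2). That of Cyp4f15 was lost without liver A, liver B, EB d15 B or either E9.25 ysE library (adjusted p up to 0.0857). All 8 endoderm markers and 6 of 8 hepatocyte markers were lower in cystic EBs, beside 6 of 8 endothelial and mesenchymal, 4 of 5 pluripotent, 4 of 4 cardiac and 3 of 4 neural markers that were higher. Of 8 erythroid markers 2 were higher and 1 lower, and 1 of 4 macrophage markers was lower. Their part in the result was not tested.

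**Figure D4:**
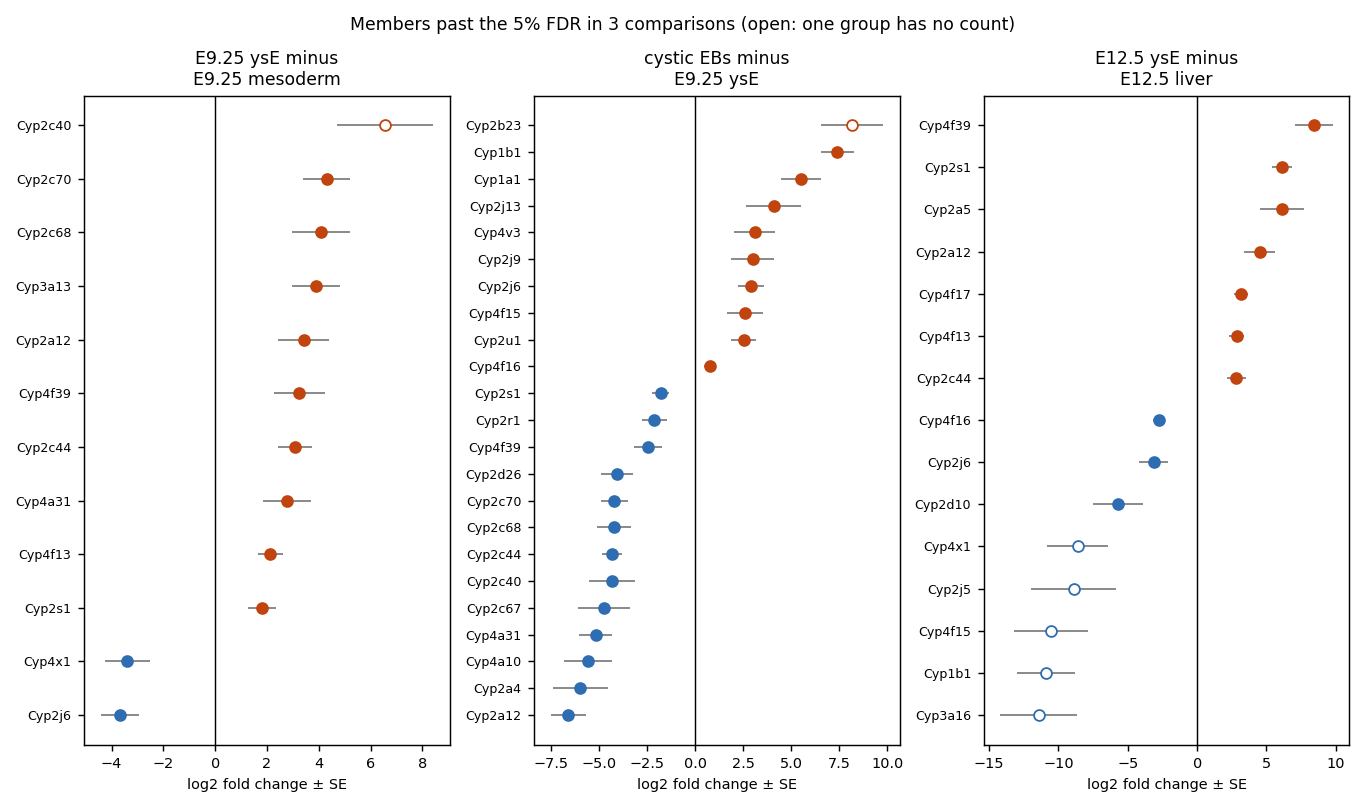
Log2 fold change ± SE (edgeR) of every member past the 5% FDR in 3 comparisons, with E9.25 ysE minus mesoderm on the left, cystic EBs minus E9.25 ysE in the middle and E12.5 ysE minus liver on the right. Red is higher and blue lower in the first-named tissue, and open points are genes without a count in 1 of the tissues, whose fitted value is not a bound. Members called number 10 and 2, 10 and 13, and 7 and 8 (higher and lower).

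Cystic EBs and fetal liver differed in P450 members in both directions, with numbers that depended on liver B, without which 6 members were higher and 12 lower. With all libraries, 24 (45.3% of those tested) were lower in cystic EBs, beside 20.9% of all transcripts, and 8 (15.1%) were higher, beside 24.6%. Some of the lower members, such as Cyp2c39, Cyp2c50 and Cyp3a44, passed the filter only through liver B. For these, a lower level in EBs was close to fixed by the filter, so the share of 45.3% is not read as an excess. The lower members comprised 9 Cyp2c genes, Cyp2a4 and Cyp2a12, Cyp2d10, Cyp2d22 and Cyp2d26, Cyp2j5, Cyp2t4, 4 Cyp3a genes, Cyp4a10, Cyp4f15, Cyp4v3 and Cyp4x1. Among them, the call of Cyp2c69 was lost under 6 of 13 alternatives and that of Cyp3a44 under 4 of 13, in both cases also by DESeq2. Cyp3a44 had 0 counts in liver A and 45 in liver B. The call of Cyp2c37 was lost without EB d10 B or EB d15 B, and that of Cyp2a4 without EB d10 A or EB d10 B. Against EBs without a count, Cyp2d10 was at least 177-fold (adjusted p = 0.00117, edgeR), Cyp3a11 at least 145-fold (adjusted p = 0.0137), Cyp2c39 at least 32.5-fold (adjusted p = 0.0292) and Cyp2c50 at least 28.3-fold higher in liver (adjusted p = 0.0288). The call of Cyp3a11 was lost by DESeq2 and without liver B (adjusted p up to 0.0981), that of Cyp2c50 by DESeq2 and without EB d15 B (adjusted p up to 0.135), and that of Cyp2c39 without EB d15 B (adjusted p = 0.0558). The bounds of Cyp2c39 and Cyp2c50 rest on liver B, with 0 and 39 counts for Cyp2c39 and 3 and 31 for Cyp2c50 in liver A and B, and neither gene had a value without liver B. Cyp3a11 had 9 counts in liver A and 165 in liver B, and its bound was 14.4-fold without liver B. Without EB d15 B, the bounds of Cyp2d10, Cyp3a11, Cyp2c39 and Cyp2c50 were 114-fold, 92.8-fold, 20.8-fold and 18.1-fold. Cyp3a16 had a ratio of EBs to liver of 0.000814 (95% interval 2.06e-05 to 0.00455, adjusted p = 0.000308), which was 0.00206 without liver B (5.15e-05 to 0.0117) and 0.000493 without liver A (1.24e-05 to 0.00276). Cyp2c67 fell by 7.39 on the log2 scale (± 1.36 SE, adjusted p = 0.00223), and the smallest lower calls were Cyp2d22, which fell by 2.42 (± 0.54, adjusted p = 0.00605), and Cyp2t4, which fell by 2.16 (± 0.63, adjusted p = 0.0194). The call of Cyp2t4 was lost without liver A or liver B (adjusted p up to 0.0871), and those of Cyp2d22, Cyp2d26, Cyp4f15 and Cyp4v3 without liver B (adjusted p = 0.0555, 0.0873, 0.132 and 0.0985). That of Cyp4x1 was lost without liver A (adjusted p = 0.0751).

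The 8 members higher in cystic EBs than in liver were Cyp2b23, at least 18.3-fold (adjusted p = 0.00797, edgeR), Cyp1a1 with a log2 fold change of 5.12 ± 1.01 SE (adjusted p = 0.00315), Cyp2s1 with 3.54 ± 0.57 (adjusted p = 0.00105), Cyp4f17 with 2.91 ± 0.42 (adjusted p = 0.000607), Cyp3a13 with 2.67 ± 0.80 (adjusted p = 0.0224), Cyp1b1 with 1.73 ± 0.60 (adjusted p = 0.0407), Cyp4f13 with 1.55 ± 0.43 (adjusted p = 0.0163) and Cyp4f39 with a ratio of 33.4 (95% interval 11.3 to 163, adjusted p = 0.0119). Without liver A, 5 were higher. Without liver B the fitted change of Cyp2a4 turned to 3.06 (adjusted p = 0.452), this gene having no count in liver A. The calls of Cyp3a13, Cyp4f13 and Cyp4f39 were lost without liver A (adjusted p up to 0.138, 0.123 and 0.0775), and that of Cyp3a13 also without liver B. That of Cyp1b1 was lost without liver A, liver B, EB d15 A or EB d15 B (adjusted p up to 0.233). Among the ScriptSeq libraries alone, 5 members were higher and 15 lower, and the calls of Cyp4f13 and Cyp1b1 were lost. The bound of Cyp2b23 was 8.80-fold without liver A and 9.48-fold without liver B, and the ratio of Cyp4f39 was 16.1 without liver A (95% interval 5.43 to 78.4). All 8 hepatocyte markers were lower in cystic EBs and so were 7 of 8 erythroid markers, while 3 of 8 endoderm markers were higher and 2 lower. All 5 pluripotent, 2 of 4 neural, 1 of 4 cardiac and 2 of 8 endothelial and mesenchymal markers were higher, and 1 endothelial marker and 2 of 4 macrophage markers were lower. Their part in the result was not tested.

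Between d15 and d10 of EB culture, no member was called in either direction by edgeR or by DESeq2, and neither was any transcript by edgeR (0% in either direction). At an unadjusted p below 0.05 there were 4 of 53 members, beside 1358 of 24858 transcripts. They were Cyp2s1 (1.25 ± 0.37 SE, log2 d15 minus d10), Cyp2c68 (3.03 ± 0.95), Cyp1b1 (1.32 ± 0.51) and Cyp2d22 (1.32 ± 0.56), with adjusted p of 0.901, 0.901, 0.901 and 0.911. These 4 had more RPKM at d15 than at d10 in both clones, with Cyp2c68 and Cyp2d22 at 0.346 or less throughout. They were picked by their p-values from the same libraries, so the like direction in both clones is no separate evidence of a change. Each day had 2 libraries, from different clones.

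The genes that serve these enzymes were examined from 4 lists, whose counts are to be read against the shares of all transcripts called in the same comparison. These were 13.7% higher and 16.9% lower for E9.25 ysE against mesoderm, 22.6% and 23.7% for E12.5 ysE against liver, and 27.1% and 23.2% for cystic EBs against E9.25 ysE. Of 6 redox and heme genes in the table (of 7 listed), 5 were higher in E12.5 ysE than in liver, where Por, the P450 reductase, differed by a log2 fold change of 1.39 ± 0.35 SE (adjusted p = 0.00926, edgeR), and 4 were lower in cystic EBs than in E9.25 ysE, with Por at -0.88 ± 0.25 (adjusted p = 0.0149). Hmox1, which degrades heme, was at 166 RPKM in E12.5 ysE against 7.25 to 18.0 as means of the other tissues. Between the layers at E9.25, 2 of the 6 were higher in ysE and none lower. Of 5 epoxide and aldehyde genes, 4 were higher in E12.5 ysE than in liver and none lower. In this list Ephx1, the microsomal epoxide hydrolase, rose between the ysE stages by 5.53 ± 0.61 (adjusted p = 0.00193) and Nqo1, a quinone reductase, by 3.47 ± 0.72 (adjusted p = 0.02). Against E9.25 ysE, cystic EBs had 2 at a higher and 2 at a lower level.

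Of 19 tested genes of xenobiotic sensing and hepatic nuclear factors (20 listed), 10 were higher and 1 lower in E9.25 ysE than in mesoderm, and cystic EBs had 3 at a higher and 10 at a lower level than E9.25 ysE. Hnf4a, the hepatocyte nuclear receptor, had means of 109 RPKM in E12.5 ysE, 92.8 for ysE at E9.25, 8.35 for VYS mesoderm, 12.8 for liver and 6.40 in cystic EBs. Nr1i2, which encodes the receptor PXR of the Cyp3a genes, was highest in liver with 3.14 RPKM, against 0.174 in E12.5 ysE (log2 fold change -4.13 ± 0.58 SE, adjusted p = 0.000526, edgeR) and 0.021 in cystic EBs. Ahr itself did not pass the test between cystic EBs and E9.25 ysE. Its means were 1.67 and 1.46 RPKM, while its fitted log2 fold change, after TMM scaling, had the opposite direction (-0.26 ± 0.30, adjusted p = 0.492, edgeR). Its known targets Ahrr and Tiparp were higher in EBs, by 2.80 ± 0.52 (adjusted p = 0.00206) and 1.10 ± 0.19 (adjusted p = 0.00132), as were Cyp1a1 and Cyp1b1. Cyp1a2, with a mean of 0.0112 RPKM in EBs, was not called. In cystic EBs against liver, Tiparp was called higher and Ahrr was not. The part of the receptor in these differences was not tested.

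Of 17 tested P450 genes of families above 4 (19 listed), which make or break down steroids, bile acids, vitamin D and retinoic acid, none was higher and 4 were lower in E9.25 ysE than in mesoderm, 6 were higher and 4 lower in E12.5 ysE than in liver, and cystic EBs had 4 at a higher and 5 at a lower level than E9.25 ysE. Several of these counts are near the background shares. Cyp21a1, the steroid 21-hydroxylase, was at 43.8 RPKM in the E12.5 ysE library against at most 0.293 in any other. Cyp26a1, which degrades retinoic acid, was at 12.2 to 29.2 RPKM in cystic EBs against at most 0.860 in any tissue, and Cyp51, an enzyme of cholesterol synthesis, was at 66.5 RPKM in E12.5 ysE and 4.53 and 4.22 for ysE at E9.25. Between the ysE stages, Cyp21a1 and Cyp51 rose and Tbxas1 fell, whereas Cyp20a1, with 27.3 RPKM at E12.5 and a mean of 41.7 at E9.25, did not pass the test (adjusted p = 0.134, edgeR).

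DNA methylation over the gene spans was lower in ysE than in liver and cystic EBs, most so over the Cyp2j and Cyp3a clusters. Methylation is the share of methylated reads among all reads at CpGs of a span with at least 20 reads in a library. The median over the members with such a value was 67.7% and 53.6% for ysE (CxF and FxC, 53 and 48 members), 75.0% and 76.2% for liver (47 and 46) and 87.3% and 82.5% in cystic EBs (54 and 45), beside medians over all genes of 72.8% and 67.7%, 79.2% and 81.2%, and 86.2% and 81.9%. With 2 libraries a tissue no test was made. The Cyp2c genes, on chromosome 19, had 0 reads in every library. The Cyp2d cluster, on chromosome 15, had 0 reads in both liver libraries, against 980 to 2494 in each of the others. The medians of the tissues therefore rest on different sets of members and genes.

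Over the whole Cyp2j cluster, 7 members on chromosome 4 (96042660 to 96664171, mm10), methylation was 42.3% and 43.0% for ysE (2551 and 1063 reads), 75.4% and 75.9% for liver (1640 and 1835) and 84.8% and 81.4% in cystic EBs (2263 and 1714). Within it, Cyp2j9 was at 22.2% and 26.5% for ysE, 74.7% and 80.2% for liver and 85.9% and 80.6% in cystic EBs. Cyp2j8 was at 28.0% and 32.3%, 67.9% and 68.5%, and 89.2% and 79.4% in the same order. At its edge, Cyp2j13 was at 64.3% and 58.2% in ysE. The Cyp3a cluster on chromosome 5 (145345149 to 146114978), with 6 members, was at 49.0% and 47.4% for ysE, 69.2% and 72.4% for liver and 83.4% and 81.3% in cystic EBs. Its gene Cyp3a11 was at 28.0% and 18.9% for ysE (50 and 37 reads), 60.6% and 72.6% for liver and 87.3% and 83.6% in cystic EBs. RNA of the Cyp3a cluster was near 0 in ysE and in cystic EBs alike, with Cyp3a16 at 0 in every ysE library and at a mean of 0.00225 RPKM in cystic EBs. The RNA and the methylation were measured in samples of other strains and, for EBs, of other ES clones. How they relate was not tested.

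The other clusters with a value were more methylated in ysE than the Cyp2j and Cyp3a clusters, with or without a member at 1 RPKM there. The Cyp2d cluster, with all members under 1 RPKM in ysE, was at 78.0% and 68.3%, and the cluster of Cyp4a, Cyp4b1 and Cyp4x1, likewise under it, at 64.0% and 68.3%. The cluster of Cyp2s1, Cyp2a and Cyp2b genes on chromosome 7 was at 67.2% and 58.7% for ysE, 76.3% and 77.8% for liver and 85.1% and 81.2% in cystic EBs. The Cyp4f cluster was at 69.7% and 62.5%, 74.7% and 80.0%, and 84.5% and 80.7%. The genes active in ysE differed from each other. Cyp4f13 was lower in both ysE libraries than in liver, at 72.4% and 65.2% against 84.2% and 86.7%, and Cyp2a12 was at 90.7% and 58.6% against 87.5% and 73.7%. Cyp2s1 was at 81.8% and 63.2% for ysE and 79.3% and 48.1% for liver, and Cyp4f39 at 76.1% and 63.0% against 73.9% and 71.9%. Of 46 members with a value in both ysE libraries, 11 (23.9%) were below 50% in both, beside 4.99% of 14087 genes. They were 6 Cyp2j genes, the Cyp3a genes Cyp3a11, Cyp3a44 and Cyp3a57, Cyp2b13 and Cyp2e1. Because neighbours share a cluster, these are a few regions and not independent genes. In liver and in cystic EBs none of 44 and 43 members was below 50% in both libraries, beside 0.732% and 0.337% of genes. Of 39 members with a value in all 6 libraries, 24 (61.5%) had both ysE values below the other 4, beside 48.2% of 12508 genes.

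**Figure D5:**
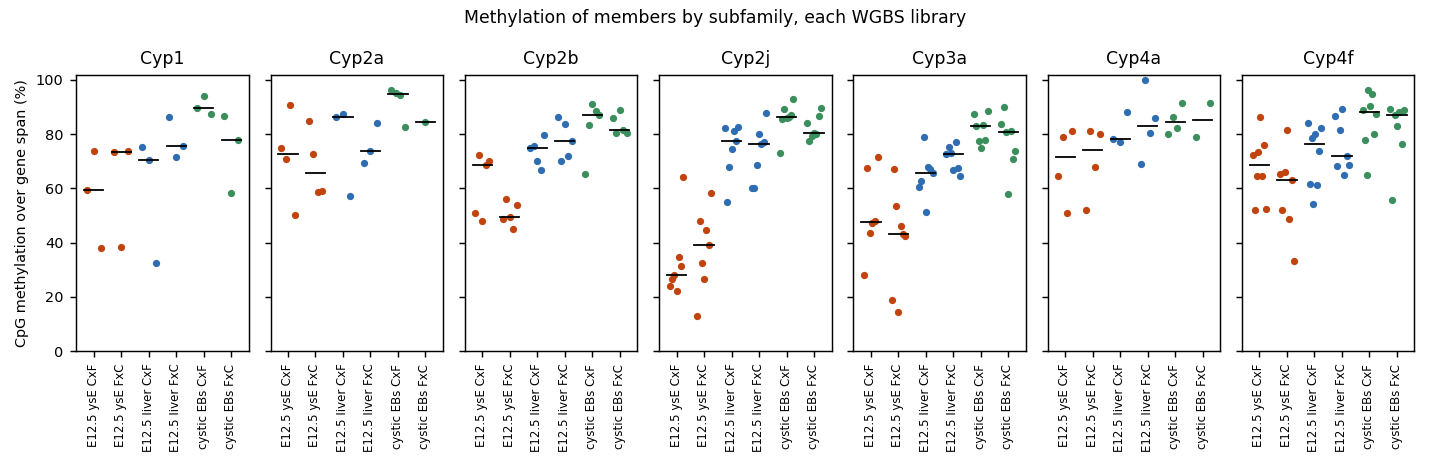
Percent CpG methylation over the gene span of each member (points) with at least 20 reads, by subfamily (family 1 in 1 panel) and bisulfite library, with a bar at the median. Cyp2j members lie between 13.0% and 64.3% in the ysE libraries and at 55.0% or more in liver and cystic EBs.

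H3K4me3, a mark of active starts, was found at a minority of the members. A peak lay within 1 kb of an end of the gene for 12 of 73 members (16.4%), beside 13244 of 22669 genes (58.4%). The 12 were Cyp1b1, Cyp2c68, Cyp2d22, Cyp2j9, Cyp2r1, Cyp2s1, Cyp2u1, Cyp4f13, Cyp4f16, Cyp4f17, Cyp4f18 and Cyp4v3. Peak scores (-10 log10 of the p-value against input) were 2230 for Cyp2c68, at chr19:39739812-39741393, and 774.3 for Cyp2s1, at chr7:25815780-25816742, beside a median of 862.9 over all 22343 peaks. Cyp4v3 had a score of 2176 and Cyp4f17 of 1941. The peak of Cyp4f18 lay at the other end of the gene and not at its start. Members at 1 RPKM or more in E12.5 ysE without a peak were Cyp2a5, Cyp2a12, Cyp2c44, Cyp2c67 and Cyp4f39. Cyp1b1, at no count in E12.5 ysE, had a peak of score 186.9, and intact VYS holds mesoderm and blood as well as endoderm.

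The start windows of the members were poor in CpG. A RefSeq window was found for 60 of the 73 members. Their median was 2 CpG in 300 bases, beside 7 in 27025 windows of all genes, and 5 members (8.33%) had 10 or more, beside 43.9% of all genes. These 5 (Cyp1b1, Cyp2r1, Cyp2s1, Cyp4f39 and Cyp4v3) were all at 1 RPKM or more in at least 1 tissue, which held for 16 of the 60. Searched on both strands, the letters TATAAA were in 26 member windows (43.3%), beside 14.2% of all genes, and AGGTCA, the core that nuclear receptors bind, in 18 (30.0%), beside 16%. GTTAAT, a core of the HNF1 site, was in 8 (13.3%), beside 7.20%, and GCGTG in 13 (21.7%), beside 32.5%. A match is a description of the letters, not a binding site, and related genes share their sequence.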

How the data were processed

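RNA-seq, bisulfite sequencing (WGBS) and H3K4me3 ChIP-seq files were analysed. The authors aligned reads to mm10 with GSNAP and deposited a table of read counts and RPKM per RefSeq transcript. The authors called CpG methylation with BisSNP at low coverage, deposited as percent methylation with read coverage, and called ChIP-seq peaks with MACS 1.4.2, deposited with a score of -10 log10 of the p-value. No value column of another series was present (0 not used).

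Here, edgeR 4.0.16 (R 4.3.3) fitted the deposited counts of all 11 libraries in 5 groups (6 for d15 against d10) with TMM scaling, a filter on low counts and a quasi-likelihood test. The 4 EB libraries, from the ES clones A9 and JN at both days, entered as independent replicates without a term for the clone. The p-values, and the spread that all groups share, therefore take no account of the likeness between libraries of the same clone. P-values were adjusted after Benjamini and Hochberg across 24858 of 30455 transcripts. Alternatives were DESeq2 1.42.0, RLE scaling, no filter, counts summed per symbol, an FDR of 1%, only the groups or the protocol compared, the replicate block and each library left out. Levels between genes are compared as RPKM. Methylation was pooled per gene span from at least 20 reads. The low coverage, 1.80 to 2.21 reads per CpG, allowed no value for most start sites. The fit was tested on simulated data. Figures used matplotlib 3.10.9.

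In each comparison all members called were named if 12 or fewer, otherwise the 6 largest and 2 smallest changes in each direction. The 5 most abundant members of each tissue and a set of well-known genes were named as well. The members and lists were chosen with earlier results of these data known. A replicate letter marks the same ES clone at d10 and d15 (correlation of deviations across transcripts 0.638), and elsewhere only a letter.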

Additional observations from a re-analysis of the deposited data

Results flagged for a closer look

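Of the members at 1 RPKM or more in an EB library, Cyp2j6 and Cyp4f17 had changes of opposite sign in the 2 ES clones between d10 and d15. The RPKM of Cyp2j6 changed by -0.574 in A9 and by 0.803 in JN. That of Cyp4f17 changed by -0.014 in A9 and by 0.055 in JN, beside levels of 1.72 to 3.32 RPKM in the 4 libraries. With 1 library per clone and day neither difference was tested.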

How the results depend on the processing

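Listed here are only the numbers that moved by more than a factor of 1.5 from those above. A direction left out stayed within that factor. The share of all transcripts called was not computed for these settings. At an FDR of 1%, the numbers of members called were 3 higher and 1 lower for E9.25 ysE against mesoderm, 0 and 0 between the ysE stages, and 5 lower for E12.5 ysE against liver. They were 4 higher for EBs against E9.25 ysE, 3 higher for EBs against E12.5 ysE, and 4 higher and 14 lower for EBs against liver. With only the groups compared in the fit, they were 6 lower for E9.25 ysE against mesoderm, 12 higher and 3 lower between the ysE stages, 8 lower for EBs against E12.5 ysE and 15 lower for EBs against liver. By DESeq2, 8 were higher in EBs than in E12.5 ysE. Among ScriptSeq libraries, 5 were higher and 15 lower in EBs than in liver. At 0.5 RPKM, 10 members were detected in E9.25 ysE, 7 in mesoderm and 13 in liver. The causes of these differences were not tested.

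With 1 library left out in turn, the higher and lower counts were 5 to 8 and 6 to 11 for E12.5 ysE against liver, 0 to 3 and 0 to 2 between the ysE stages, 1 to 12 and 1 to 3 for E9.25 ysE against mesoderm, 5 to 8 and 12 to 24 for EBs against liver, 4 to 6 and 11 to 13 for EBs against E12.5 ysE, 3 to 10 and 10 to 13 for EBs against E9.25 ysE, and 0 between EB days. Cyp2a4 in EBs against liver ranged from -7.54 without EB d15 B to 3.06, a reversal, without liver replicate B, the cause of which was not tested. A lone remaining library was assumed to vary like the other groups.

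With the replicate letter as a block, 11 members were higher and 2 lower in E9.25 ysE than in mesoderm, 9 and 13 in EBs than in E9.25 ysE, 8 and 19 in EBs than in liver, and 0 and 0 between EB days. Only in the last does the pairing rest on the same clone. Of 62 calls of single members refitted with the block, 61 were kept and 1, that of Cyp4v3 in EBs against E9.25 ysE, was lost. The calls of Cyp2c37, Cyp2c39, Cyp2c50, Cyp2c69 and Cyp3a44 in EBs against liver had no value in that fit and are not among the 62.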
